A study of Mus musculus with 8 samples.

Results

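The Zfp genes of mouse, named for zinc finger proteins, were scored for the 3 methylation states of lysine 9 of histone H3. The members were all genes of the GENCODE M21 annotation (GRCm38) whose symbol is Zfp followed by a digit and that lie on chromosomes 1, 2, 3, 4, 6, 7, 12, 13, 16 and 18. There were 246 of them among 417 Zfp genes and 55413 annotated genes on the 21 main chromosomes, and 232 of the 246 were protein-coding. The 10 chromosomes were chosen because the region lists cover them sparsely, so that a low level there against other chromosomes is set by the choice and is not a result.

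The study mapped H3K9me1, H3K9me2 and H3K9me3 by chromatin immunoprecipitation and sequencing (ChIP-seq) in wild-type mouse embryonic fibroblasts (MEFs) grown in standard medium. Its 8 samples fell into 4 groups, namely sonicated input DNA and 1 immunoprecipitation for each mark, with 2 replicates in each. According to the methods, the wild-type cells were 1 clone, Eset25 (E1c), which carries a conditional Eset1 allele (Eset1 is also called Setdb1) and was selected for high Cre activity, and this background was shared by all 4 groups. The deposited data were 1 list of enriched regions per mark, with chromosome, start and end on a grid of 750 bp and with no score, read count or value per replicate. The numbers below therefore describe 1 map per mark, no read depth can be read from them, and no difference could be tested against replicate error. The lists hold no expression values, so the fibroblast label could not be checked against marker genes.

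Most Zfp genes encode proteins with tandem C2H2 fingers, each of which folds around a zinc ion and contacts DNA, and many also carry a KRAB domain. KRAB binds Trim28 (KAP1), which brings in the H3K9 methyltransferase Setdb1 and HP1 proteins to silence the bound locus, often a retrotransposon. The genes themselves lie in tandem arrays that grew by duplication, and their 3' exons, which encode the fingers, are known sites of H3K9me3 in several cell types.

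A gene was called marked at its start where a region met the window 1 kb either side of any annotated transcript start, at its body where a region met the span from gene start to gene end, and at its 3' end where a region met the window 1 kb either side of the 3' end, each by at least 1 bp. Of the 246 members, 47 were marked at 1 or more of these places (19.1%) and 199 at none, and the share over all 28837 genes of the same chromosomes was 13.5% and over their protein-coding genes 19.6%. H3K9me3 was found at 33 members (13.4%), against 5.3% of all genes, H3K9me2 at 19 (7.72%), against 2.5%, and H3K9me1 at 33 (13.4%), against 9.03%. With the marks and all these chromosomes pooled, the members thus lay at the level of protein-coding genes. That level did not hold on each set of chromosomes. On chromosomes 1 and 2, 58.3% of the members and 59.4% of the protein-coding genes had any mark. On the other 8 chromosomes the shares were 12.4% and 4.67%. The marked members lay unevenly over the chromosomes. A block of 2.34 Mb on chromosome 4 (chr4:145510759-147848366) held 18 members, and all 18 were marked. Chromosomes 1 and 2 held 21 of the 29 marked members outside this block, which is the 58.3% given above. Outside the block, the other 8 chromosomes held 8 among 192 (4.17%), near the 4.67% of their protein-coding genes, block included. Zfp936 on chromosome 7 was the only one of those 8 members with all 3 marks.

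To show what lies under the marks, 252 bases of the longest coding exon are given for Zfp984 and Zfp936, whose longest coding exons were wholly covered by each of the 3 marks, and for Zfp180, whose exon was met by no region in the lists. The Zfp180 stretch holds the amplicon that the study used as a positive control locus for ChIP-qPCR of H3K9 methylation, so the absence of a called region there does not show that the marks are absent. They were read from GRCm38 on the coding strand at chr4:147755361-147755612 (minus strand), chr7:43189486-43189737 (plus strand) and chr7:24105178-24105429 (plus strand). Capitals mark the 14 bases ACNGGNGANAANCC, which encode the conserved linker between fingers.
Zfp984: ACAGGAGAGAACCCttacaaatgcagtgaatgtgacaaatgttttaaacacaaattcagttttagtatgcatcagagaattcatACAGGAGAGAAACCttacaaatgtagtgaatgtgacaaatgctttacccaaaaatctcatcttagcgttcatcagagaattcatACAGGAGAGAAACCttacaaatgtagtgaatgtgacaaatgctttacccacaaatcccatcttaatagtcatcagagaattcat
Zfp936: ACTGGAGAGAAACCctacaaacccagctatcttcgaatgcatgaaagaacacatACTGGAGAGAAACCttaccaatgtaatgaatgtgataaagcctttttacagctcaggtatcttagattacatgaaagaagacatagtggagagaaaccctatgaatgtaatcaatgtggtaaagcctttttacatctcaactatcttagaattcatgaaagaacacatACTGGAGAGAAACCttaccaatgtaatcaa
Zfp180: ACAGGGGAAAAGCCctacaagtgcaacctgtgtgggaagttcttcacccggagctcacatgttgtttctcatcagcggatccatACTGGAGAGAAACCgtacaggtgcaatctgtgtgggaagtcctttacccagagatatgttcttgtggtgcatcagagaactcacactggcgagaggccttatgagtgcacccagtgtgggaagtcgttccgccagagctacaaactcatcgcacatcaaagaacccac
The linker letters were found on the coding strand of the longest coding exon in 161 of 232 protein-coding members (69.4%) and in 100 of 10943 other protein-coding genes of the same chromosomes (0.914%). Over 32851 RefSeq promoters of 300 bases, 0.0609% held them on either strand. Zfp984 had 11 matches in its exon, Zfp180 had 9 and Zfp936 had 8. The array of linker matches was thus present in genes with and without called regions. The longest coding exon was wholly covered by H3K9me3 in 12 members, 6 of them in the chromosome 4 block, and partly covered in 6 more.

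At the start site, H3K9me3 was found in 22 of 246 members (8.94%, Wilson 95% interval 5.98 to 13.2), against 3.38% of the 28837 genes of the same chromosomes. H3K9me2 was found at 13 member starts (5.28%), against 1.53% of all genes. H3K9me1 was found at 16 (6.5%), against 5.77%. Any mark was found at 25 (10.2%), against 8.91%. Intervals cover counting error only, and members that are neighbours are not independent. Over protein-coding genes alone the shares at start sites were 2.69% for H3K9me3, 1.65% for H3K9me2 and 8.66% for H3K9me1.

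In the gene body, H3K9me3 was found in 32 members (13%), against 4.9% of all genes, and H3K9me2 in 18 (7.32%), against 2.32%. H3K9me1 was found in 30 bodies (12.2%), against 8.37%, and any mark in 44 (17.9%), against 12.6%. Among protein-coding genes the body shares were 5.74% for H3K9me3, 3.26% for H3K9me2, 14.5% for H3K9me1 and 19% for any mark. Pooled over the 10 chromosomes, the members thus lay below protein-coding genes for H3K9me1 and for any mark. On chromosomes 1 and 2 they also did (36.1% against 50.2%, and 52.8% against 57.5%). On the other 8 chromosomes the members lay above (8.1% against 1.08%, and 11.9% against 4.54%). Without the chromosome 4 block the members of those 8 had 0.521% and 3.65%. At the 3' end, H3K9me3 was found in 21 members (8.54%), against 2.91%, and H3K9me2 in 10 (4.07%), against 1.38%. H3K9me1 was found at 20 member 3' ends (8.13%), against 6.08%, and any mark at 30 (12.2%), against 8.77%. The protein-coding shares at the 3' end were 1.81% for H3K9me3, 1.32% for H3K9me2, 9.08% for H3K9me1 and 10.7% for any mark.

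**Figure D1:**
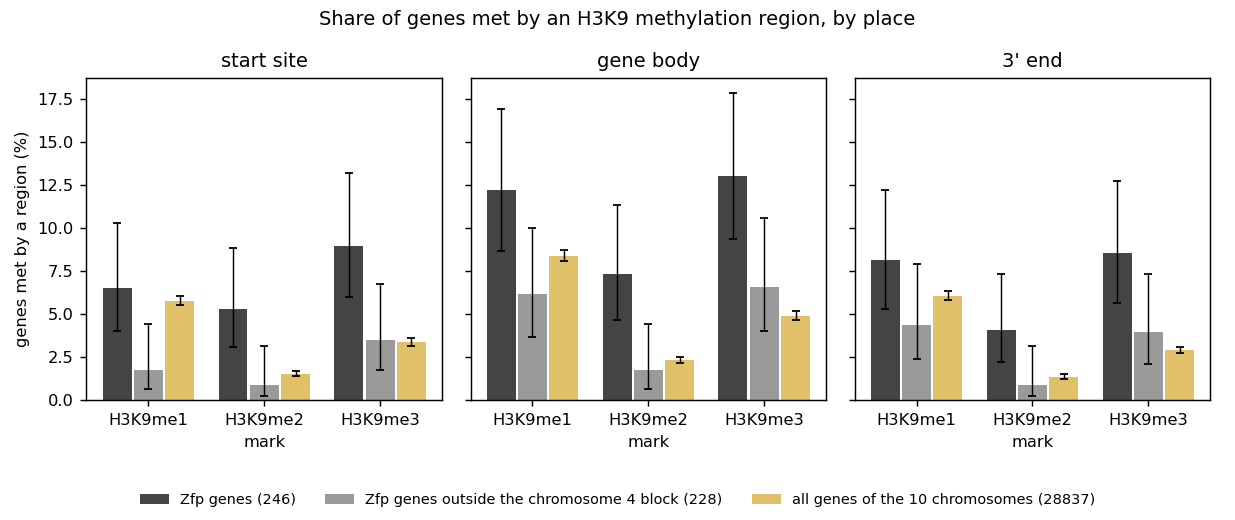
Share of genes (%) met by a region of each mark at the start site, in the gene body and at the 3' end, with Wilson 95% intervals for counting error. The dark bars (246 Zfp genes) reach 13% for H3K9me3 in the body, while the grey bars (228 Zfp genes without the chromosome 4 block) lie at 6.58% there, near the 4.9% of all 28837 genes (yellow bars).

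Much of the difference from all genes came from the chromosome 4 block, which was singled out after its values were seen and joins a pair of neighbouring clusters with the 3 members between them. Without its 18 members, H3K9me3 was found at 8 of 228 starts (3.51%), 15 bodies (6.58%) and 9 3' ends (3.95%), and H3K9me2 at 2 starts (0.877%), 4 bodies (1.75%) and 2 3' ends (0.877%). On the 8 chromosomes other than 1 and 2 and outside the block, 8 of 192 members had H3K9me3 at any place (4.17%), and the same share of all genes of those 8 chromosomes, block included, was 3.89%. H3K9me1 was found at 1 of the 192 and H3K9me2 at 2.

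The block ran from Zfp990 to Zfp933, and its members in order were Zfp990, Zfp980, Zfp986, Zfp987, Zfp600, Zfp992, Zfp981, Zfp993, Zfp989, Zfp991, Zfp988, Zfp978, Zfp982, Zfp985, Zfp979, Zfp534, Zfp984 and Zfp933. It makes up 1.49% of chromosome 4 but held 74% of the H3K9me1 bases on that chromosome, 64.6% of its H3K9me2 bases and 19.8% of its H3K9me3 bases. H3K9me1 covered 34.4% of the block and 0.183% of the rest of the chromosome. H3K9me2 covered 30.1% of the block and 0.25% of the rest, and H3K9me3 covered 51% and 3.14%. In the block, 96.4% of the H3K9me2 bases and 79% of the H3K9me1 bases were also covered by H3K9me3, whereas 56.8% of the H3K9me3 bases were covered by H3K9me2 and 53.3% by H3K9me1. All 3 marks together covered 38.7% of the bases that had any mark. The regions in the block had median widths of 21 kb for H3K9me3, 9 kb for H3K9me2 and 8.25 kb for H3K9me1, while the medians over all regions of the 10 chromosomes were 6, 5.25 and 3.75 kb.

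**Figure D2:**
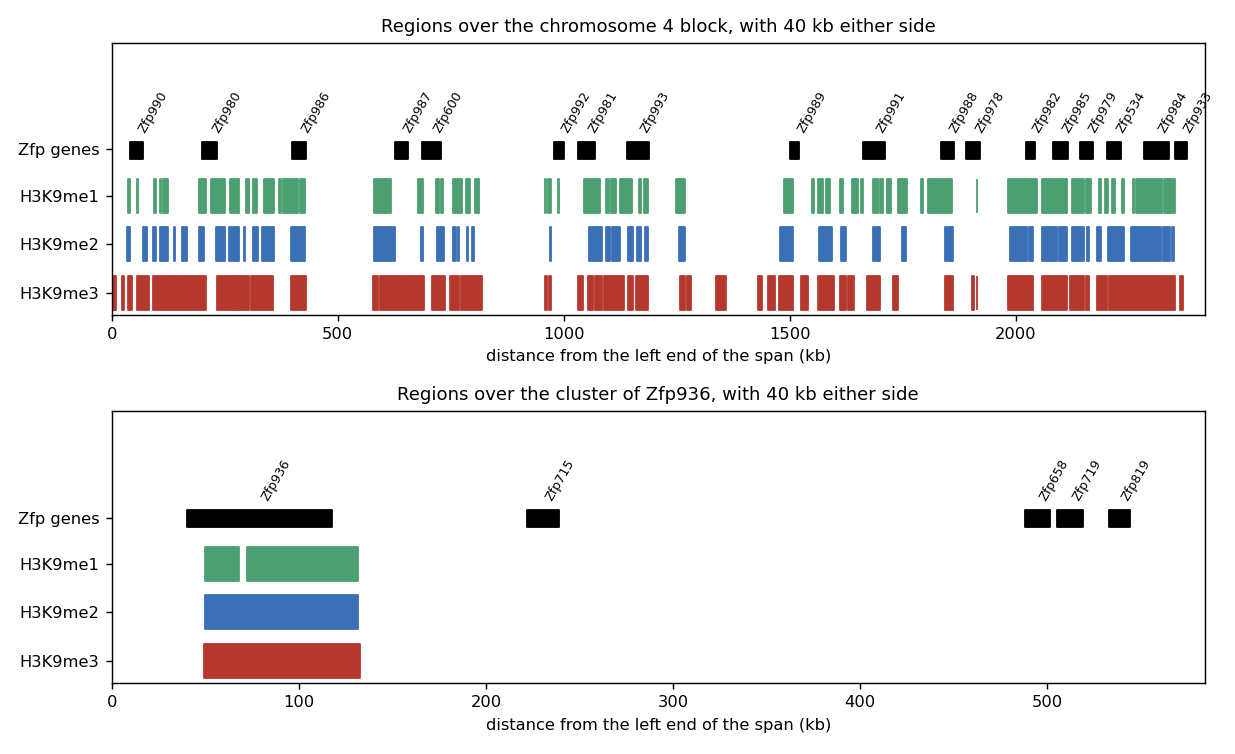
Members (black) and regions of each mark (coloured bars) along the chromosome 4 block and the cluster of Zfp936, in kb from the left end of the drawn span, which has 40 kb added on either side. All 18 members of the block were met by a region, whereas in the cluster of Zfp936 the regions lay over 1 of 5 members.

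Within the block the members differed in the share of the body covered. Zfp985 and Zfp986 were covered almost end to end by H3K9me3 (99.4% and 99.3% of the body). Zfp984, the longest of the block at 55.8 kb, had 96% under H3K9me3, 94.6% under H3K9me2 and 89.3% under H3K9me1. The widest H3K9me3 region of the block, 117.75 kb at chr4:147675751-147793500, met both Zfp984 and its neighbour Zfp534. Zfp534 had 92.3% of its body under H3K9me3 and 94.8% under H3K9me2 but 23.2% under H3K9me1.

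Some members carried the marks unequally. Zfp987 had 92.3% of its body under H3K9me3 and none under the other marks, although an H3K9me2 region reached its start window. Zfp990 had 55.2% under H3K9me3, 7.91% under H3K9me1 and 1.73% under H3K9me2. Zfp600 had 58.9% under H3K9me3 and 19.5% under each of the other marks. The opposite order was seen at Zfp980 (64.5% under H3K9me1, 31.1% under H3K9me3), Zfp988 (85.5% and 64.1%), Zfp982 (85.8% and 72.8%), Zfp979 (66.4% and 51.7%) and Zfp981 (66% and 58.1%). In Zfp993, Zfp991 and Zfp989 the H3K9me3 share was the highest of the 3, at 77.9%, 58.7% and 33.4%. The least covered members were Zfp992, with 10.6% of its body under H3K9me1 and no other mark, Zfp978, with 17.7% under H3K9me3 and 5.05% under H3K9me1, and Zfp933 at the end of the block, with 20.7% of its body under H3K9me3 alone.

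**Figure D3:**
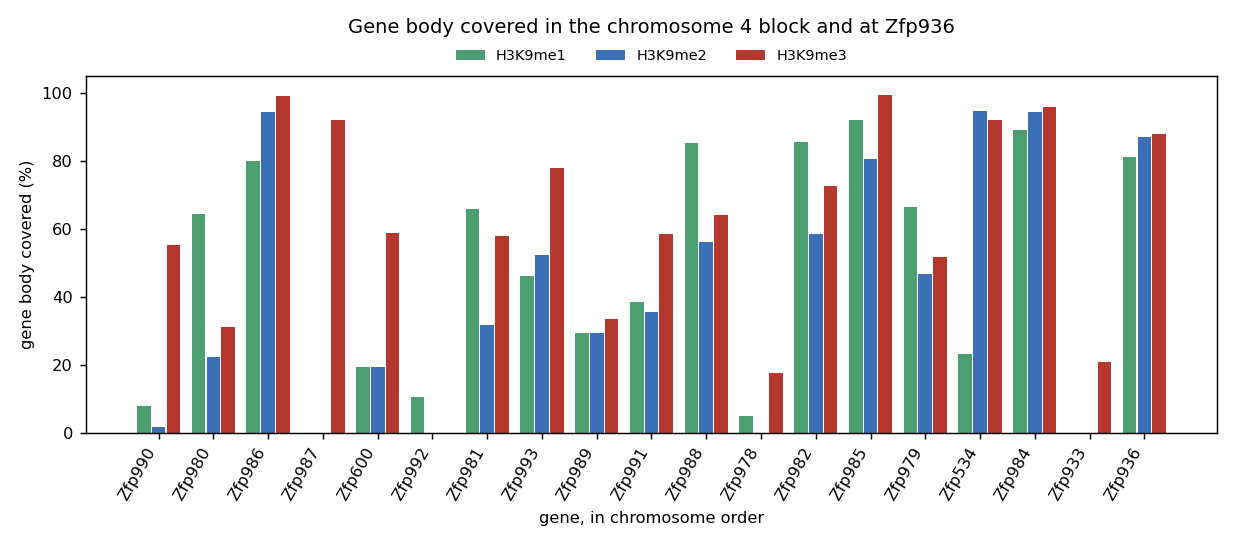
Share of the gene body (%) covered by regions of each mark for the 18 members of the chromosome 4 block and for Zfp936. H3K9me3 covered between 0% (Zfp992) and 99.4% (Zfp985) of a body, and each member had at least 1 mark.

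By place, 14 of the 18 block members had H3K9me3 at a start site, 17 in the body and 12 at the 3' end. H3K9me2 was found at 11 starts, 14 bodies and 8 3' ends, and H3K9me1 at 12, 16 and 10. Zfp979 had regions of all 3 marks in its body and at its 3' end but no mark at its start. The 4 other protein-coding genes that lie in the block, Gm13212 (20 C2H2 fingers), Rex2 (15 fingers), Gm21411 and Gm16503, were marked as well. Of all 70 annotated genes there that are no members, 57 had a mark.

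The promoters of the block showed related sequence. RefSeq gave a promoter of 300 bases (250 before to 50 after the start, GRCm38.p6) for 196 of the 246 members and for 12 of the 18 in the block. The same run of 17 bases, TGGGAAGCTAATTAATT, was found in 8 of these 12 on either strand. Of 32851 promoters in the table, 9 held it (0.0274%), and the ninth belonged to Gm13212 in the same block. The run was looked for because it was the longest shared by at least 8 of the 12 promoters, so its frequency in the block is no test. The promoters with the run were 51.7% to 89.3% identical to each other (median 72.2%). Those of Zfp980 (chr4:145670447-145670746, plus strand) and Zfp985 (chr4:147553027-147553326, plus strand) are shown because all 300 bases were covered by each mark, that of Zfp979 (chr4:147642459-147642758, minus strand) because none were, and that of Zfp936 (chr7:43177340-43177639, plus strand) because it was covered by each mark and lies outside the block. Capitals mark the shared run.
Zfp980: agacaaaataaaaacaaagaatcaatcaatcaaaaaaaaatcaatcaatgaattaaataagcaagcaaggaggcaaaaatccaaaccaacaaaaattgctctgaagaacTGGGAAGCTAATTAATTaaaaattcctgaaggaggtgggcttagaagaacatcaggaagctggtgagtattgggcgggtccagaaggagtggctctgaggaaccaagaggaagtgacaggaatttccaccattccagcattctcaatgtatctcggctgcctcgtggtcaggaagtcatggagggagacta
Zfp985: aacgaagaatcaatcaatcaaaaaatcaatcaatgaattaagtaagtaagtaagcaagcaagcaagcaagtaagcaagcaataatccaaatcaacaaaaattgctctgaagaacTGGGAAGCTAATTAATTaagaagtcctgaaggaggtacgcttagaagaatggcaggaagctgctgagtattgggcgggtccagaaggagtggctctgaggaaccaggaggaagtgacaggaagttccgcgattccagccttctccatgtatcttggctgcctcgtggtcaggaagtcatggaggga
Zfp979: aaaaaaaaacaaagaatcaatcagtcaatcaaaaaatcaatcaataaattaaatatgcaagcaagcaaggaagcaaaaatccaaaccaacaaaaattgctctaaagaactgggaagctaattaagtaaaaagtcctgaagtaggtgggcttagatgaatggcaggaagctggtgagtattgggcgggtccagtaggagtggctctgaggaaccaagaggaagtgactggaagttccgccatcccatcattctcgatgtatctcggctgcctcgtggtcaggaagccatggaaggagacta
Zfp936: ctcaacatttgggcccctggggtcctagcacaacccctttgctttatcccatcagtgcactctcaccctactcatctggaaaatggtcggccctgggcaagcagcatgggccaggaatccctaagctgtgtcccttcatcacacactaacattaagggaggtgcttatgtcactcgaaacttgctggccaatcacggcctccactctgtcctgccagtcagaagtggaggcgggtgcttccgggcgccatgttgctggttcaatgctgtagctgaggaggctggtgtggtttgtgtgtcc
The promoters of Zfp980 and Zfp979 were 89.7% identical over their whole length, and 1 lay under all 3 marks while the other lay under none. The Zfp936 promoter was 42% to 44.7% identical to the promoters that held the run. H3K9me3 met 6 of the 8 promoters with the run, and of the 4 without it, it covered those of Zfp600 and Zfp993 and not those of Zfp979 and Zfp933. A match of letters is a description and not a binding site.

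The block is also rich in sequence that occurs more than once. Stretches of 100 bases, taken every 50 bases, were counted as repeated where they occurred more than once in the 21 chromosomes on either strand. The median block member had 65.8% of its stretches repeated (range 5.97% to 90.8%), against 0.794% over all 232 protein-coding members and 0.457% over the 11175 protein-coding genes of the 10 chromosomes. The coding sequence of the median block member was 85.4% identical to its closest member, and Zfp991 and Zfp992 were 99.5% identical. H3K9me3 covered over 90% of the body of Zfp985 (5.97% repeated), Zfp984 (21.8%), Zfp986 (68.5%) and Zfp987 (71.8%), and 17.7% of the body of Zfp978 (88.4%). How reads that align to more than 1 place were treated is not given in the sources used here, and the part of repeated sequence in these calls was not tested.

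**Figure D4:**
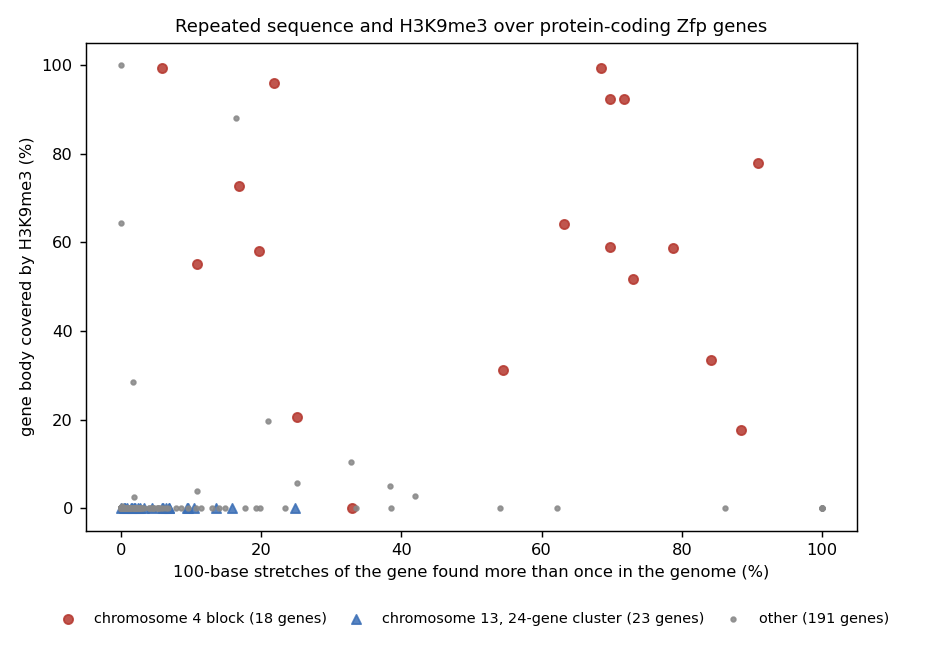
Share of 100-base stretches of each protein-coding Zfp gene that occur more than once in the genome (%, x axis) against the share of the gene body under H3K9me3 (%, y axis). The block members (red) span 5.97% to 90.8% on the x axis, and all but Zfp992 lie above 0 on the y axis, whereas the 23 protein-coding members of the chromosome 13 cluster (blue) lie at 0.

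Over protein-coding members of all 10 chromosomes, H3K9me3 was found at any place in 5 of 166 genes with under 5% of stretches repeated, in 6 of 35 with 5% to 20% and in 19 of 31 with 20% or more. The shares over all protein-coding genes were 3.62%, 18% and 19.3%. Outside the block the middle class had 2 of 31 and the last 6 of 17. Repeated sequence was not always marked. A cluster of 4 members on chromosome 2 (Zfp968, Zfp965, Zfp969 and Zfp966) had 9168 of 9170 stretches repeated, and no region of any mark lay in it. Of its span 17.9% was unassembled (N). In the marked chromosome 4 cluster from Zfp990 to Zfp600 it was 21.8%, and in that from Zfp989 to Zfp933 0%. Covered shares of clusters and of the block are over whole spans, unassembled bases included.

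Zfp936 stood apart on chromosome 7. The gene spans 77.9 kb (chr7:43114229-43192109, plus strand), has 4 annotated start sites and encodes 11 fingers. H3K9me3 covered 68.6 kb of its body (88.1%) in 1 region of 83.25 kb (chr7:43123501-43206750), H3K9me2 covered 67.9 kb (87.1%) in 1 region of 81.75 kb (chr7:43124251-43206000), and H3K9me1 covered 63.4 kb (81.4%) in regions of 18 and 59.25 kb. These were the largest body lengths under H3K9me3 and under H3K9me1 among the 246 members. The regions began downstream of the gene's 5' end and ran past its 3' end, so that the 5'-most start was unmarked while inner starts and the 3' end were marked for all 3 states. The promoter printed above for Zfp936 lies at an inner start. The paper shows Zfp936 as an example of an H3K9me3-positive promoter, and its grouping of genes by promoter state left out promoters with several states.

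The other members of its cluster, Zfp715, Zfp658, Zfp719 and Zfp819, had no region of any mark. The nearest H3K9me3 region lay 89.4 kb from Zfp715, 356 kb from Zfp658, 373 kb from Zfp719 and 400 kb from Zfp819. Zfp936 had 16.5% of its stretches repeated and these 4 genes had 0% to 2.26%. Zfp715 encodes 18 fingers, Zfp658 21, Zfp719 13 and Zfp819 9. The part of repeated sequence or of fingers in this difference was not tested.

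Clusters were runs of at least 4 members with gaps of at most 250 kb. There were 16, with 131 members, and 4 of them held a marked member. These were the pair on chromosome 4 (5 of 5 and 10 of 10 members marked), the cluster of Zfp936 (1 of 5) and 1 on chromosome 2 (2 of 4). In clusters, 18 of 131 members had H3K9me3 at any place (13.7%), and outside them 15 of 115 did (13%). Without the block the counts were 3 of 116 in clusters (2.59%) and 13 of 112 outside them (11.6%). The share was 5.3% over all genes of the 10 chromosomes and 5.94% over their protein-coding genes. On chromosomes 1 and 2, which the lists cover more, the only clusters were Zfp120 to Zfp345 and Zfp968 to Zfp966, with 4 members each. The part of the chromosomes in this difference was not tested. In the marked chromosome 2 cluster, Zfp937 had H3K9me3 over 4.47 kb of its body. This included its whole longest coding exon and its 3' end. Zfp442 had 2.25 kb at a start site. Their neighbours Zfp120 and Zfp345 were unmarked, at 35 and 10.7 kb from the nearest H3K9me3 region.

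**Figure D5:**
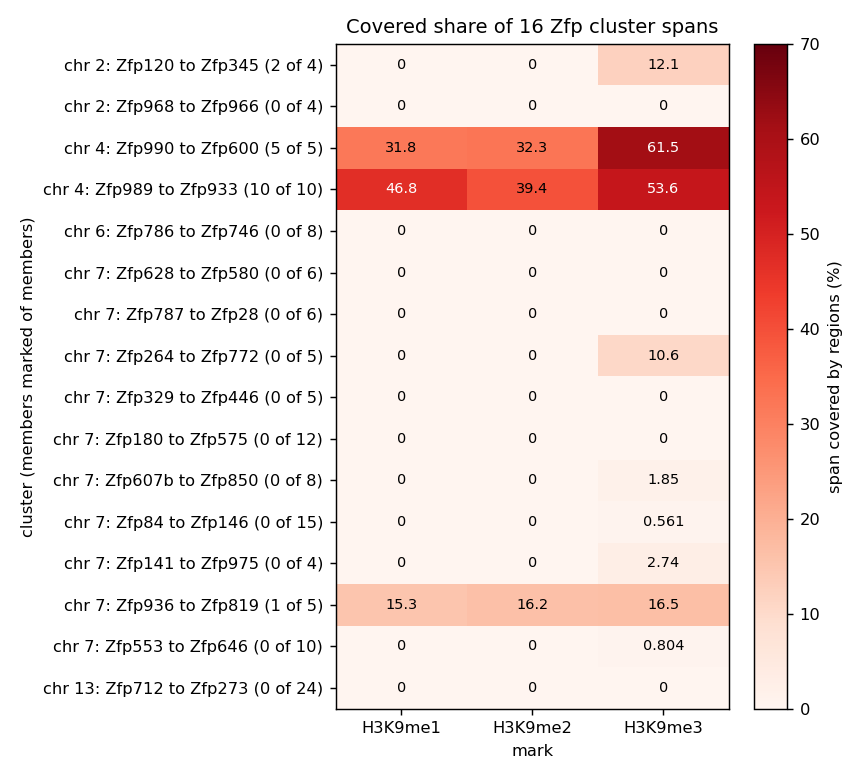
Share of each cluster's span (%) covered by regions of the 3 marks, for the 16 clusters named by their first and last members, with the number of marked members in brackets. The chromosome 4 clusters had 61.5% and 53.6% of their spans under H3K9me3, the cluster of Zfp936 had 16.5%, and the 24-member cluster on chromosome 13 had 0%.

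The largest cluster, from Zfp712 to Zfp273 on chromosome 13 (chr13:67038596-67827002), held 24 members and 349 fingers, and no region of any mark lay in its 788 kb. The nearest region was 173 kb from its closest member. The cluster from Zfp180 to Zfp575 on chromosome 7 (12 members) had no region either. Zfp180, the ChIP-qPCR control locus, lay 523 kb from the nearest H3K9me3 region. The cluster from Zfp84 to Zfp146 (15 members, 188 fingers) had 0.561% of its span under H3K9me3, and the cluster from Zfp264 to Zfp772 had 10.6%, but in both the regions lay between members. On chromosome 7 as a whole 2 of 95 members had a mark at any place, where 4.77% of all its genes had one, and on chromosome 13 it was 3 of 39, where 3.88% had one. On chromosomes 3 and 12 it was 1 of 4 and 1 of 6 (3.36% and 6.29% of all genes), and on chromosome 4 outside the block it was 1 (Zfp69). On chromosomes 6, 16 and 18 it was none of 19, 6 and 11, and the shares of all genes there, 2.88%, 2.05% and 2.14%, would give less than 1 gene in each. A gene without a region may still carry a signal below the authors' calling threshold, which the lists do not show.

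Among the remaining members of the 8 chromosomes, Zfp640 on chromosome 13, a transcribed processed pseudogene, had H3K9me3 over 11.1 kb (39.1%) and H3K9me2 over 2.24 kb, both reaching a start site. Zfp934 had H3K9me3 at its 3' end, in a region of 6 kb that also lay in the body of the overlapping gene Zfp935. Zfp697, Zfp69, Zfp277 and Zfp536, a repressor of neuronal differentiation, had 10.5, 2.25, 5.25 and 1.5 kb of their bodies under H3K9me3 and no other mark. This was 2.83% of Zfp697, 10.4% of Zfp69, 4.01% of Zfp277 and 0.498% of Zfp536. The longest coding exon was covered by H3K9me3 over 100% in Zfp697 and over 68.9% in Zfp536, and not at all in Zfp69 and Zfp277.

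Chromosomes 1 and 2 showed another pattern, and the lists also cover them more. H3K9me1 regions covered 5.66% of chromosome 1 and 11.9% of chromosome 2, against 0.0275% to 0.694% of each of the other 8. For H3K9me2 the shares were 1.88% and 2.63%, against 0% to 0.695%, and for H3K9me3 4.2% and 6.19%, against 0.236% to 3.85%. The part of this coverage in the pattern was not tested. Chromosomes 1 and 2 held 36 members, of which 15 had H3K9me1, 8 had H3K9me3 and 2 had H3K9me2 at any place. The share with H3K9me1 (41.7%) lay between that of all genes (32.9%) and that of the protein-coding genes (51.9%) of these chromosomes. The share with H3K9me3 (22.2%) was above both (9.49% and 10.9%). Of the 8 members with H3K9me3, 6 were protein-coding. Other C2H2 genes of these chromosomes, described below, had H3K9me3 in 26.6% of cases. Among the members, only Zfp385b and Zfp663 had both H3K9me1 and H3K9me3.

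Besides Zfp937 and Zfp442, these chromosomes held 6 members with H3K9me3. Both genes that carry the symbol Zfp813-ps on chromosome 1, a lincRNA and a processed pseudogene, lay wholly under H3K9me3. Zfp648 was covered over its whole 4.5 kb by H3K9me3 and over 43.1% by H3K9me2, and none of its stretches were repeated. Zfp831 had 43.3 kb of its body (64.3%) under H3K9me3, and a region of 237.75 kb, the widest that met any member, ran from its 3' part outwards (chr2:174694501-174932250). Zfp663 had H3K9me3 over its longest coding exon and 3' end, with 28.4% of the body covered. Zfp385b, a gene of 409 kb, had H3K9me3 at a start site and 10.5 kb under H3K9me3, 19.5 kb under H3K9me2 and 6 kb under H3K9me1.

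Another 13 members had H3K9me1 and no H3K9me3. The longest cover was at Zfp341, a transcription factor that drives STAT3 expression, with 29.1 kb (86.7% of the body). Zfp64 followed with 14.9 kb (24%), Zfp106 with 12.2 kb (21.4%) and Zfp142, which encodes 36 fingers, with 11.1 kb (48.1%). Zfp661 had 69.1% of its body covered, Zfp512b 70.1%, Zfp408 42.2%, Zfp335 22.6% and Zfp451, a SUMO ligase, 14.1%. Zfp970 and Zfp133-ps had 0.75 kb each, and Zfp217 and Zfp335os were met at the 3' window only. The 11 protein-coding members of this kind had a median of 0.283% of stretches repeated and 51.8% identity to the closest member in coding sequence, while the 15 without a mark on these chromosomes had 38.5% and 82.2%.

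The KRAB domain was looked for in the translated coding sequences with a pattern for its A box, and 79 of 232 protein-coding members matched. In the block 13 of 18 matched, and outside it 66 of 214 did. Among the members outside the block, 2 of 66 with the pattern had H3K9me3 at any place (3.03%), and 11 of 148 without it did (7.43%). With a wider pattern, chosen after the first had been seen to miss members, 119 matched, among them all 18 of the block, and 7 of the 101 with it outside the block had H3K9me3 (6.93%), against 6 of 113 without it (5.31%). The order of the shares with and without KRAB therefore turned with the pattern. On chromosomes 1 and 2, 1 of 3 with the first pattern and 5 of 29 without it had H3K9me3. On the other 8 chromosomes outside the block it was 1 of 63 and 6 of 119. With the wider pattern the counts were 3 of 17 and 3 of 15 on chromosomes 1 and 2. They were 4 of 84 and 3 of 98 on the other 8 outside the block. Members marked by H3K9me3 had a median of 10.5 fingers and unmarked members 10.

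Other zinc finger genes gave a comparison. On the same chromosomes, 180 further protein-coding genes had at least 3 C2H2 fingers, and 27 of them had H3K9me3 at any place (15%), 10 had H3K9me2 (5.56%) and 19 had H3K9me1 (10.6%), next to 13.4%, 7.72% and 13.4% of the members. More of these genes lay on chromosomes 1 and 2 (64 of 180, against 36 of 246 members). There H3K9me3 was found in 26.6% of them and 22.2% of the members. On the other 8 chromosomes it was found in 8.62% of them and 11.9% of the members. Without the block the members had 4.17%, but the 8.62% still counts Gm13212 and Rex2, which lie in the block and both had H3K9me3. Of 58 Zscan, Zkscan, Zbtb and Klf genes on the same 10 chromosomes, 6 had H3K9me1 and none had H3K9me2 or H3K9me3. The shares of protein-coding genes of these 10 chromosomes were 15% for H3K9me1, 3.4% for H3K9me2 and 5.94% for H3K9me3. For H3K9me2 and H3K9me3 such shares amount to only a few of 58 genes. The 161 Zfp genes on chromosomes 5, 8, 9, 10, 11, 14, 15, 17 and 19 had H3K9me3 in 72 cases (44.7%), where 31.6% of protein-coding genes had it, and H3K9me1 in 104 (64.6%), where 74.5% had it.

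Of 32 genes of the KRAB co-repressor and H3K9me3 pathway found in the annotation, 12 had H3K9me1 at any place and none had H3K9me2 or H3K9me3. The share of protein-coding genes with H3K9me1 was 15% on the 10 chromosomes and 74.5% on the 9 broadly covered ones. For H3K9me2 these shares were 3.4% and 34.9%, and for H3K9me3 5.94% and 31.6%. Suv39h1 and Atrx lie on chromosome X, which none of these shares covers. On the 10 chromosomes 1 of 14 was marked, Ehmt1 on chromosome 2, which encodes the methyltransferase GLP, with H3K9me1 at its start, body and 3' end. Trim28, Setdb1, Atf7ip, Cbx3, Hdac1 and Suv39h2 lay on these chromosomes without a region. The 11 marked genes on other chromosomes were Dnmt1, Uhrf1, Ehmt2, Setdb2, Mphosph8, Fam208a, Pphln1, Morc2a, Chd3, Cbx5 and Zfp57, and each had H3K9me1 alone.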

How the data were processed

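ChIP-seq of H3K9me1, H3K9me2, H3K9me3 and input was done in 8 samples. Per the labels and methods, the authors aligned the reads to mm10 (GRCm38) with BWA 0.7.1 and called regions with histoneHMM. The deposited lists hold chromosome, start and end only. How replicates and input entered the calls, and the calling threshold, are not given in the sources used here. Coordinates were taken as 1-based with inclusive ends, and 0 positions lay off the 750 bp grid.

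Genes, transcripts and coding sequences came from GENCODE M21 and GRCm38, and promoters from RefSeq (GRCm38.p6). A finger was C, 2 to 4 residues, C, 12 residues, H, 3 to 5 residues, H. Identity was taken from edit distance (edlib 1.3.9.post1). Scoring was tested on simulated data. Python 3.11.15, NumPy 2.4.6 and pysam 0.24.0 were used. No test was made, since no list holds values per replicate.

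The members and lists were chosen with earlier results of these data known. Named were all members with H3K9me2 or H3K9me3 at a start or 3' end, the 10 members with most body bases under H3K9me3 and the 5 under H3K9me1, Zfp180, the cluster of Zfp936, unmarked cluster neighbours, and marked pathway genes. Other members, and unmarked pathway genes, were named after their values were seen.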

Additional observations from a re-analysis of the deposited data

How the results depend on the processing

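The lists hold no depth and no calling score, so neither a stricter threshold nor the spread between replicates could be examined. No paired analysis was possible because each mark has 1 list for both replicates, and for the same reason no replicate could be left out. Of 121 alternative values for 13 counts, 99 stayed within 1.5 times the count reported, and 12 of 12 counts were equal with starts read as 0-based. Without the chromosome 4 block, an alternative added after seeing the data, the counts for H3K9me1, H3K9me2, H3K9me3 and any mark were 4, 2, 8 and 11 at start sites, 14, 4, 15 and 26 in gene bodies and 10, 2, 9 and 17 at 3' ends. Without chromosomes 1 and 2, members with any mark numbered 16 at start sites, 25 in bodies and 16 at 3' ends, and those with H3K9me1 17 in bodies and 11 at 3' ends. Where at least 50% of the body had to be covered, 12 members had H3K9me1, 8 had H3K9me2, 18 had H3K9me3 and 22 had any mark. With a gap of at most 100 kb, 12 clusters formed and 1 held a marked member. These counts are over fewer genes or a stricter rule by construction. Windows of 500 bp or 2 kb and regions of at least 2 or 5 kb kept every count within 1.5 times.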
